A study of Mus musculus with 6 samples.

Results

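The spindle checkpoint and anaphase control genes were examined in oocytes of aged mice given aminophylline. They are 10 genes taken by symbol from the deposited table: Mad2l1, Bub1, Bub1b, Bub3, Ttk, Cdc20, Fzr1, Fbxo43, Pttg1 and Espl1. They were matched by symbol, with no threshold on a measured value. All 10 were found among the 25631 genes listed, and all 10 passed the filter on low values, an FPKM (sequenced fragments scaled to transcript length and library total) of 1 or more in 3 or more libraries, which left 10340 genes to test. Pttg1, Mad2l1 and Bub3 were the most abundant of the group and Espl1 the least. No member passed the test for a difference between aminophylline and control after adjustment for the number of genes tested. Espl1 and Fzr1 had the 2 largest differences, both toward higher values with aminophylline, and both were smaller without control library 1 and larger without control library 3.

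The 6 libraries hold RNA of oocytes from naturally aged ICR mice, 14 months old. The control group (n = 3 libraries, described in the labels as aged and untreated) drank water only for 4 weeks, and the aminophylline group (n = 3 libraries) drank 4 mM aminophylline for 1 week and then water only for 3 weeks. Aminophylline is a theophylline derivative that inhibits phosphodiesterases, the enzymes that break down cyclic nucleotides. All mice of both groups were injected with equine chorionic gonadotropin (eCG), which stimulates follicle growth, and oocytes were punctured out of the large antral follicles. How many oocytes and mice stood behind a library is not given in the sources used here, so p-values measure the spread between these libraries, which may in part be technical.

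The spindle checkpoint holds a dividing cell in metaphase until its chromosomes are attached to the spindle. Its kinases and scaffold proteins (Ttk, Bub1, Bub1b, Bub3) and Mad2l1 block Cdc20, which otherwise activates the anaphase-promoting complex (APC/C), a ubiquitin ligase that marks securin and cyclin B for destruction. Loss of securin (Pttg1) frees separase (Espl1), which cleaves cohesin and lets chromosomes part. In oocytes Fzr1, the other APC/C activator, helps to keep the cell in prophase arrest, and Fbxo43 inhibits the APC/C to hold the egg at the second metaphase until fertilization.

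Depth and cell content bear on all of these values. The libraries held from 14112341 reads in control library 2 to 33641283 in control library 1, and the other four held 24773273 to 31802417. All 11 oocyte markers were detected, with a summed FPKM of 19626 to 27008. Of 10 granulosa and cumulus cell markers, 7 stayed under an FPKM of 1 in every library, among them Fshr, Foxl2 and Amh. Cyp19a1 (7.37 to 15.7) and Nr5a2 (4.43 to 8.53) made up most of the sum over all 10, which was 16.0 to 23.9. The sums were 2.76 to 5.17 for 7 theca and stroma markers, 5.01 to 6.82 for 2 endothelial markers and 0.0486 to 0.459 for 3 erythrocyte markers. Control library 1 stood apart from the other libraries in its macrophage markers, whose sum over 9 genes was 219 against 81.1 to 102 elsewhere. C1qb made up nearly all of the latter sums, with an FPKM of 72.3 to 99.8 in the 6 libraries. Lyz2 had an FPKM of 66.4 in control library 1 and at most 0.573 in any other, and C1qc had 14.8 against 0 in the other five. Control library 1 also differed by base composition. Over 9330 genes with a known GC content, the rank correlation between a gene's deviation from its own mean and its GC content was -0.54 in control library 1 and lay between -0.15 and 0.34 in the other five. Differences between the groups that rest on control library 1 are therefore given with and without it. The fits with the replicate block and the counts of same-numbered pairs all include it. In oocyte pools, less RNA per cell and fewer cells that hold a transcript cannot be told apart.

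The members differed widely in level. By mean FPKM over the 6 libraries, which is a value per transcript length, Pttg1 stood at 1194 and ranked 51 of all 25631 genes listed, and Mad2l1 stood at 448 and ranked 224. Bub3 (188), Bub1b (103), Cdc20 (62.6) and Ttk (40.5) followed. Fzr1 (26.6), Fbxo43 (15.8), Bub1 (14.5) and Espl1 (6.27, rank 5311) were the lowest. Neighbours in this order kept their order in all 6 libraries, except Fzr1 above Fbxo43 and Fbxo43 above Bub1, which each held in 5 of 6. The ranges over libraries did not overlap between Pttg1 and Mad2l1, Mad2l1 and Bub3, or Bub3 and Bub1b, and overlapped between every lower pair of neighbours. Securin mRNA was thus at a far higher FPKM than separase mRNA in every library. The length behind the deposited FPKM of Pttg1, recovered from the values, was 2867 bases, while its annotated coding transcripts were 476 to 1674 bases long. With those lengths and the same reads its FPKM would be higher still. The length behind Espl1, 6980 bases, was also above that of its longest coding transcript, 6658 bases.

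**Figure D1:**
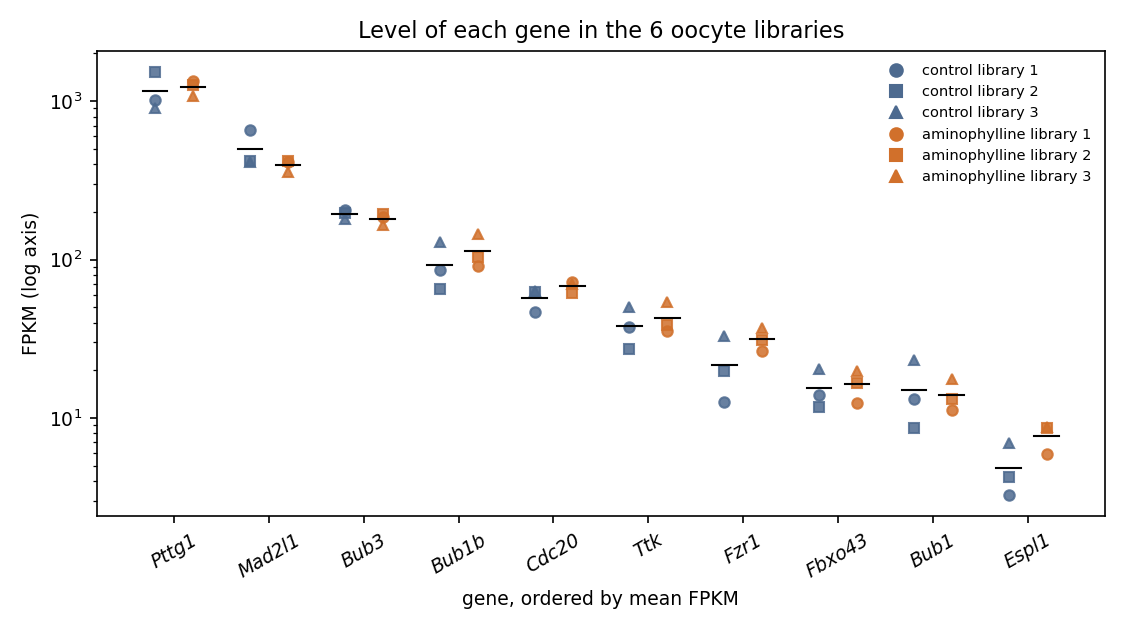
FPKM of the 10 members on a log axis in each of the 6 libraries, 3 control and 3 aminophylline, with the genes ordered by mean level and a bar at the mean of each group. Pttg1 lay at 912 or above and Espl1 at 8.71 or below in every library, and the points of the 2 groups overlapped for every gene.

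No kinase or scaffold protein of the checkpoint differed between the groups by more than the spread of its libraries. Bub1b (NCBI gene 12236, chr2:118598202-118641592 of GRCm38), which encodes BubR1 of the complex that inhibits the APC/C, had an FPKM of 85.3, 64.8 and 128 in control libraries 1 to 3 and of 90.5, 104 and 146 in aminophylline libraries 1 to 3. The third library of each group was the highest, and the groups overlapped. The means were 92.8 ± 32.3 and 113 ± 28.8 (SD, n = 3 each), a difference of 0.31 on the log2(FPKM + 1) scale used for all differences here (standard error 0.25, limma adjusted p = 0.761, 95% interval -0.25 to 0.87). It was 0.09 without control library 2, 0.12 without aminophylline library 3 and 0.57 without control library 3 (unadjusted p = 0.0259, adjusted p = 0.311, limma). Bub1 (NCBI gene 12235, chr2:127800197-127831859), the kinase that marks centromeric chromatin, had 13.1, 8.66 and 23.2 in control and 11.3, 13.2 and 17.5 with aminophylline. The 2 extremes were both control libraries, so the aminophylline values lay inside the control range. The difference was -0.01 (standard error 0.31, limma adjusted p = 0.994, 95% interval -0.69 to 0.67).

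Ttk (NCBI gene 22137, chr9:83834651-83872390), the kinase Mps1 that starts checkpoint signalling, had an FPKM of 37.5, 27.3 and 49.8 in control and 35.5, 38.9 and 53.9 with aminophylline. Here too the third library of each group was the highest, and the difference was 0.18 (standard error 0.24, limma adjusted p = 0.847). Bub3 (NCBI gene 12237, chr7:131560367-131571895), the adaptor that brings Bub1 and BubR1 to kinetochores, had 205, 197 and 180.1 in control and 185, 194 and 165 with aminophylline. It was the steadiest member, with its highest library 1.25 times its lowest. Its means of 194 ± 12.9 and 181 ± 14.9 (SD, n = 3 each) differed by -0.10 (standard error 0.15, limma adjusted p = 0.867, 95% interval -0.43 to 0.23), and by -0.03 without aminophylline library 3.

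Mad2l1 (NCBI gene 56150, chr6:66535221-66541107), whose protein MAD2 binds and blocks Cdc20, had an FPKM of 658, 421 and 415 in control and 416, 420.2 and 358 with aminophylline. Control library 1 alone was high, and 4 of the other five libraries lay between 415 and 421. The means were 498 ± 139 and 398 ± 34.9 (SD, n = 3 each), and the difference of -0.29 did not pass the test (standard error 0.20, limma adjusted p = 0.728). Without control library 1 the difference was -0.07 (unadjusted p = 0.641, limma). Mad2l1 has the lowest GC content of the 10 members, 40.8%, and after a correction for GC content and length the difference was -0.09. The part of base composition in the value of control library 1 was not tested beyond this correction.

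The 2 activators of the APC/C both had higher means with aminophylline, without passing the test. Cdc20 (NCBI gene 107995, chr4:118432901-118437343), the activator at anaphase and the target of the checkpoint, had an FPKM of 46.7, 62.1 and 63.0 in control and 71.9, 61.4 and 70.3 with aminophylline. Control library 1 was the lowest, and the groups overlapped through aminophylline library 2. The difference was 0.25 (standard error 0.18, limma adjusted p = 0.728, 95% interval -0.13 to 0.64) and 0.11 without control library 1. Fzr1 (NCBI gene 56371, chr10:81366879-81378370), which encodes the activator Cdh1, had 12.5, 19.8 and 32.8 in control and 26.6, 31.0 and 37.0 with aminophylline. Its control libraries spread widely, and control library 3 lay above 2 of the aminophylline libraries. The means were 21.7 ± 10.3 and 31.5 ± 5.19 (SD, n = 3 each), a difference of 0.61 (standard error 0.29, unadjusted p = 0.0624 and adjusted p = 0.688, limma, 95% interval -0.04 to 1.25). Fzr1 was higher in 3 of 3 same-numbered pairs. With the replicate number as a block, limma gave an unadjusted p of 0.00469 and an adjusted p of 0.154. Both rest on a pairing by number that no source states. Without control library 1 the difference was 0.28 (unadjusted p = 0.290, adjusted p = 0.984, limma), and without control library 3 it was 0.94 (unadjusted p = 0.00194, adjusted p = 0.251, limma).

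Fbxo43 (NCBI gene 78803, chr15:36150060-36169940), the APC/C inhibitor Emi2, had an FPKM of 14.04, 11.7 and 20.5 in control and 12.4, 16.6 and 19.8 with aminophylline. The lowest and the highest value were both in control libraries. The difference was 0.09 (standard error 0.25, limma adjusted p = 0.932).

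Securin stayed within its control range, and separase had a log2 difference close to that of Fzr1. Pttg1 (NCBI gene 30939, chr11:43420244-43427463), securin, had an FPKM of 1019.9, 1530.3 and 912 in control and 1349, 1268 and 1083 with aminophylline, so the aminophylline libraries lay inside the control range. The difference was 0.13 (standard error 0.20, limma adjusted p = 0.875, 95% interval -0.32 to 0.57). Espl1 (NCBI gene 105988, chr15:102296254-102324357), separase, had 3.27, 4.21 and 6.91 in control and 5.88, 8.63 and 8.71 with aminophylline. Of the aminophylline libraries, 2 lay above every control library and the third lay below control library 3. The means were 4.80 ± 1.89 and 7.74 ± 1.61 (SD, n = 3 each), 1.61-fold apart on the linear scale, from 415 to 1859 reads per library. The log2 difference was 0.62 (standard error 0.27, unadjusted p = 0.0420, adjusted p = 0.682, limma, 95% interval 0.03 to 1.22). Under the same assumed pairing, Espl1 was higher in 3 of 3 same-numbered pairs. In limma with the replicate block it had an unadjusted p of 0.00690 and an adjusted p of 0.185. Without control library 1 the log2 difference was 0.43 (unadjusted p = 0.163, adjusted p = 0.984, limma), and without control library 3 it was 0.87 (unadjusted p = 0.00461, adjusted p = 0.271, limma).

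**Figure D2:**
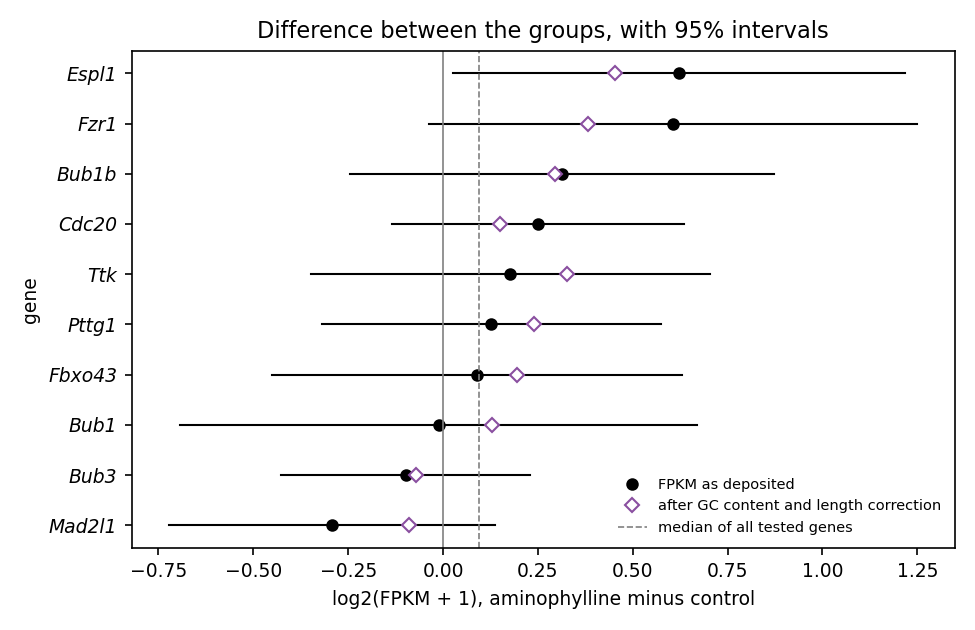
Log2 difference, aminophylline minus control, of each member on the log2(FPKM + 1) scale, with black points and 95% intervals for the values as deposited, open diamonds after the correction for GC content and length, and a dashed line at the median of all genes tested (0.10). Of the black intervals, that of Espl1 (0.03 to 1.22) leaves out 0, and the diamonds lie nearer to 0 than the points for Mad2l1, Bub3, Cdc20, Bub1b, Fzr1 and Espl1 and farther from 0 for Bub1, Ttk, Fbxo43 and Pttg1.

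As a group the members stood close to the background of all genes. An adjusted p under 0.05 was reached by 0 of 10 members, as by 0.0% of all genes tested (limma), and an unadjusted one by 1 of 10 (Espl1) against 7.25% of all genes (4.41% higher and 2.84% lower with aminophylline). With the replicate block the unadjusted count was 2 of 10 (Fzr1 and Espl1, both higher) against 14.2% of all genes in either direction and 9.88% higher, and the adjusted count 0 against 0.455%. With the block and the correction for GC content and length together it was 3 of 10 (Ttk, Fzr1 and Espl1) against 14.6%. No member had groups that did not overlap, against 12.5% of all genes (7.51% higher and 4.96% lower with aminophylline). Values were higher with aminophylline in all 3 same-numbered pairs for 3 members (Bub1b, Fzr1 and Espl1), against 25.9% of all genes, and lower in all 3 for 2 members (Mad2l1 and Bub3), against 10.5%. The median log2 difference was 0.15 over the members and 0.10 over all genes tested, of which 64.8% were higher with aminophylline.

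Ratios between partners in the same library need no scaling between libraries, and 4 were compared. The ratio of Bub1 to Bub1b was 0.154, 0.134 and 0.181 in control and 0.125, 0.127 and 0.120 with aminophylline, so that all 3 aminophylline libraries lay under all 3 control libraries. The log2 ratio differed by -0.32 (two-sided exact permutation p = 0.1, the smallest that 3 against 3 libraries allow, and 0.3 adjusted over the 4 ratios), and by -0.21 without control library 3. Securin to separase, Pttg1 to Espl1, stood at 311, 363 and 132 in control and 230, 147 and 124 with aminophylline, which overlapped (log2 difference -0.61, exact permutation p = 0.3). The difference was -0.44 without control library 1. On leaving out a library it ran from -0.33 without control library 2 to -1.06 without control library 3. The 2 APC/C activators, Cdc20 to Fzr1, stood at 3.72, 3.14 and 1.92 against 2.70, 1.98 and 1.90 (log2 difference -0.38, exact permutation p = 0.3), again with overlap, and differed by -0.18 without control library 1 and by -0.66 without control library 3. For the inhibitor and its target, Mad2l1 to Cdc20, control library 1 had a ratio of 14.1 and the other five 5.08 to 6.85 (log2 difference -0.55, exact permutation p = 0.3, and -0.19 without control library 1). The GC content was 41.0% for Bub1 and 50.4% for Bub1b. Their differences were -0.01 and 0.31 as deposited, and 0.13 and 0.29 after the correction for GC content and length. The ratios were not compared after this correction, so the part of GC content in them was not tested.

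**Figure D3:**
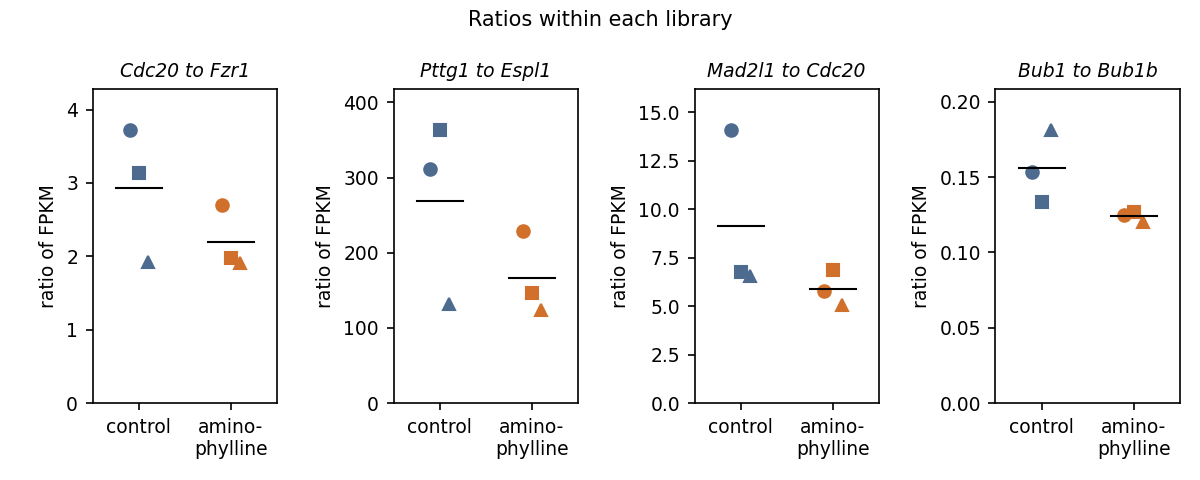
Ratio of FPKM values of 4 pairs of partners in each library, on linear axes from 0, with a symbol per library number and a bar at the mean of each group. The Bub1 to Bub1b ratio lies at 0.120 to 0.127 in the aminophylline libraries and at 0.134 to 0.181 in control, while the other pairs overlap between groups.

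Deviations of single libraries moved with base composition and transcript length. Among the 10 members, the rank correlation of the deviation from a gene's own mean with its GC content was -0.87 in control library 1. It was 0.14 and -0.006 in control libraries 2 and 3, and 0.55 to 0.72 in the 3 aminophylline libraries. Over 9330 genes with a known GC content, it was 0.26, 0.34 and 0.11 in aminophylline libraries 1 to 3. There it was 0.19 in control library 2. The values of the members describe 10 genes that share each library's depth. The mean is taken over these same libraries, so the correlations depend on each other. In control library 1 the 3 members richest in GC were lower than in any other library: Fzr1 (60.8% GC) by 0.95, Espl1 (56.1%) by 0.70 and Cdc20 (55.6%) by 0.40 below their own means on the log2 scale. Mad2l1 was 0.58 above its own mean there. Length went with a different split of the libraries. The median deviation of the 5 members with transcripts of 3000 bases or more (Bub1, Bub1b, Ttk, Fbxo43 and Espl1) was -0.52 in control library 2, 0.36 in control library 3 and 0.44 in aminophylline library 3. After the correction for GC content and length, the range over the 6 libraries was smaller for 9 of 10 members and the control SD for 8 of 10. The median range of a member went from 0.92 to 0.84 on the log2 scale. It was 0.73 over all genes tested and, after the correction, 0.64 over the 9330 with a known GC content. The correction is fitted to the deviations of these same libraries, so a smaller spread is in part built in. The control SD of Mad2l1 went from 0.38 to 0.20, while that of Pttg1 went from 0.39 to 0.46. The corrected differences of Espl1 and Fzr1 were 0.45 (unadjusted p = 0.0570, limma) and 0.38 (unadjusted p = 0.149, limma), nearer to 0 than before. Those of Ttk (0.33), Pttg1 (0.24), Fbxo43 (0.20) and Bub1 (0.13) were farther from 0. Counting error was small beside this spread: at most 4.91% of the value for any member in any library, against coefficients of variation of 6.65% to 49.8% within control and 8.20% to 25.4% within aminophylline.

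**Figure D4:**
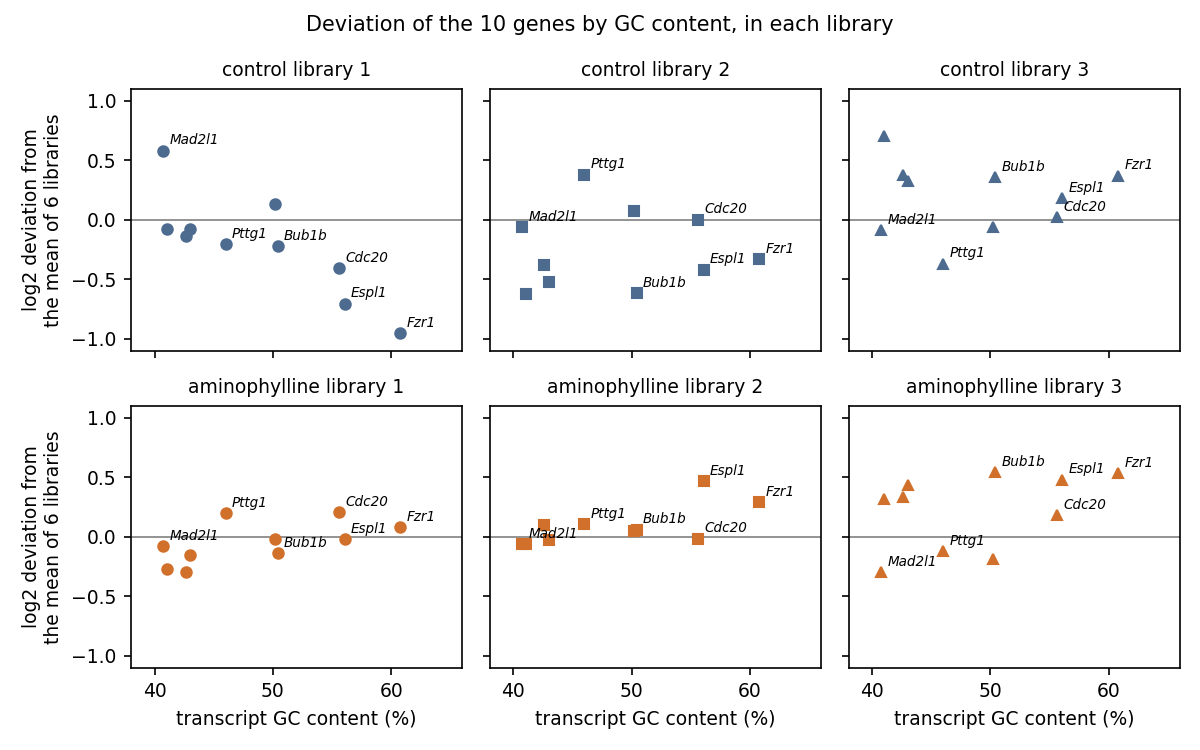
Deviation of each member from its own mean over the 6 libraries (log2(FPKM + 1), y axis) against GC content in percent (x axis), 1 panel per library. The GC content is that of the annotated transcript nearest in length to the recovered length. Points fall with GC content in control library 1 (rank correlation -0.87) and rise with it in the aminophylline libraries (0.55 to 0.72). The correlations are 0.14 and -0.006 in control libraries 2 and 3. Over 9330 genes with a known GC content, those of aminophylline libraries 1 to 3 are 0.26, 0.34 and 0.11. That of control library 1 is -0.54.

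Promoter sequences of the members were searched for 2 short motifs. Windows of 300 bases around the RefSeq start sites on GRCm38.p6 were found for 9 of the 10 members, all but Fbxo43. The letters TTTGAA, read on either strand (TTCAAA on the other), are the core of the cell cycle genes homology region, an element bound by regulators of cell cycle genes. They occurred in 5 of the 9 (Bub1b, Bub3, Ttk, Cdc20 and Espl1), against 17.9% of 32851 windows of the same length. CCAAT, the site of the factor NF-Y, likewise read on either strand, occurred in 7 of 9 against 37.4%. Neither was found in the windows of Mad2l1 and Pttg1. The Pttg1 window (chr11:43425932-43426231, minus strand) lies inside the gene, which reaches to 43427463. The bases before that outermost start were therefore not searched. The 120 bases before the start are shown for the 2 APC/C activators and for separase, the members with the highest GC content, with TTTGAA in capitals. Cdc20 (chr4:118437344-118437463, minus strand) and Espl1 (chr15:102296173-102296292, plus strand) hold it, and the letters are absent from the window of Fzr1 (chr10:81378371-81378490, minus strand). A match describes the letters and was not tested as a binding site.
Cdc20: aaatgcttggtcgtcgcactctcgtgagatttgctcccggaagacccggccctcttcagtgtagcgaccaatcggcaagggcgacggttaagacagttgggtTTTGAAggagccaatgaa
Espl1: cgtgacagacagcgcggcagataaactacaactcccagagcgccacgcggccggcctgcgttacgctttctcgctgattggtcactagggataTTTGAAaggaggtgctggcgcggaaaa
Fzr1: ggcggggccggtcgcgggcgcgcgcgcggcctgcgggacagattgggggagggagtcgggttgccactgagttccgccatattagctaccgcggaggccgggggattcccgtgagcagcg

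Other genes of the pathway were counted in 6 lists, of which 51 genes were tested. None reached an adjusted p under 0.05 (limma), and 4 had an unadjusted one, 2 higher and 2 lower with aminophylline, where 7.25% of all genes did. In the outer kinetochore network, which binds microtubules, 1 of 10 genes was higher and 1 lower at that level, with a median log2 difference of -0.09. Spc24, of the NDC80 complex, had an FPKM of 72.3, 100.3 and 83.9 in control and 132, 120 and 98.5 with aminophylline, overlapping between groups (0.45, standard error 0.18, limma adjusted p = 0.682). Dsn1, of the MIS12 complex, had 237, 188 and 243 in control and 161, 169 and 167 with aminophylline. All 3 aminophylline libraries were below all 3 control libraries, as for 4.96% of all genes (-0.42, standard error 0.16, limma adjusted p = 0.682). Of the 10 genes in this list, 2 lay lower without overlap and 0 higher.

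Among the 14 subunits of the APC/C, 1 was higher and 1 lower at an unadjusted p under 0.05, and the median difference was 0.11. Cdc16, a scaffold subunit, had an FPKM of 17.1, 13.3 and 18.8 in control and 10.3, 10.2 and 12.04 with aminophylline (-0.55, standard error 0.20, limma adjusted p = 0.682). The groups did not overlap, as for 4.96% of all genes in this direction, and Cdc16 was the only 1 of the 14 subunits without overlap. Anapc2, the cullin of the ligase's catalytic core, had 3.68, 4.16 and 5.83 in control and 5.04, 7.85 and 9.18 with aminophylline, which overlapped (0.57, standard error 0.26, limma adjusted p = 0.685). The subunits thus lay on both sides of 0.

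The other lists held no gene with an unadjusted p under 0.05 (limma). Groups did not overlap for 1 other checkpoint gene (higher) and, among the substrates, for 1 higher and 1 lower gene. Over all genes the share was 12.5% in either direction. The median difference was 0.18 over 8 other checkpoint genes, -0.21 over 5 E2 enzymes and modulators of the APC/C, -0.08 over 10 of its substrates and 0.15 over 4 separase substrates and their protectors. All 5 E2 enzymes and modulators had log2 differences below 0, while 64.8% of all genes tested were higher with aminophylline. The balance of directions over all genes rests on the scaling, and the direction of this list was not tested. The most abundant of the 5, Ube2s, which extends ubiquitin chains on APC/C substrates, had an FPKM of 459 ± 88.0 in control and 399 ± 103 with aminophylline (SD, n = 3 each, difference -0.21, limma adjusted p = 0.788). Ccnb1, cyclin B1 and the most abundant substrate in its list, had 1097, 717 and 970 in control and 701, 791 and 734 with aminophylline, which overlapped (-0.30, standard error 0.18, limma adjusted p = 0.725). Sgo1, the most abundant gene in the list of separase substrates and their protectors, had 17.6 ± 2.90 and 17.98 ± 0.884 (SD, n = 3 each, difference 0.04, limma adjusted p = 0.963).

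The genes whose pattern over the 6 libraries was most like that of Espl1, by Pearson's r of log2(FPKM + 1) among all genes tested, were Rpl3 (r = 0.998), Diaph1 (0.997) and Cnppd1 (0.993). Each was lowest in control library 1, and these correlations describe 6 libraries whose depth all genes share.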

How the data were processed

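The authors sequenced oocyte RNA in 6 libraries and deposited FPKM values per gene, that is, counted fragments divided by transcript length and library total, with no further scaling. The submitters' processing notes name GRCm 38 and mm 10 as builds, and the aligner, counter and annotation are not given in the sources used here. Gene positions come from RefSeq on GRCm38.p6. Groups and replicate numbers came from the labels. Whole reads, library totals and transcript lengths were recovered from the FPKM values: for 100% of 22583 genes above 0 in at least 2 libraries all values came out whole within 0.001 read, and 99.565% to 99.627% of each total lay on listed genes. PCR reads are not independent molecules, so counting error is a lower limit of the error.

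Groups were compared with limma 3.58.1 under R 4.3.3 (moderated variance with a trend), two-sided, on log2(FPKM + 1) of the 10340 genes whose FPKM reached 1 in 3 or more libraries, with Benjamini-Hochberg adjustment over all of them. Fold changes on this scale understate the change of low genes. The code was tested on simulated data. Ratios were compared by exact permutation of the libraries with scipy 1.17.1 under Python 3.11.15. Same-numbered libraries deviated together from the means of their groups, with correlations of 0.138, 0.140 and 0.552 over the genes tested. Each was above 0.1, so the numbers were treated as pairs. No source says that same-numbered libraries share mice, and libraries of unlike number were not compared in this way. The pairing is therefore an assumption. Control library 3 and aminophylline library 3 both deviated with transcript length (rank correlations of 0.42 and 0.31). Control library 2 and aminophylline library 1, of unlike number, did so in the other direction (-0.40 and -0.43). Their same-numbered partners, aminophylline library 2 and control library 1, stood at -0.02 and -0.004. After the correction for GC content and length the correlations between same-numbered libraries were 0.128, 0.139 and 0.484. The members and lists were chosen with earlier results of these data known. Genes of the lists were named where their unadjusted p was under 0.05 or where they had the highest mean FPKM of their list, and the 3 genes most like Espl1 by their correlation with it. The alternatives are given in the closing section. The correction for GC content and length, a loess fit per library over the 90.2% of tested genes with both values known, was added after the data were seen. The GC content of a gene was that of its GENCODE transcript nearest in length to the recovered length. This need not be the transcript behind the deposited FPKM.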

Additional observations from a re-analysis of the deposited data

How the results depend on the processing

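No member and no gene of the 6 pathway lists reached an adjusted p under 0.05 in any of 18 alternatives, and the smallest adjusted p of a member was 0.142 (Espl1, library weights). The number of members with an unadjusted p under 0.05, 1 as reported (7.25% of all genes), was 0 with no filter, with rescaling to the same sum (TPM), with an unmoderated linear model and with the correction for GC content and length (5.48%, 5.55%, 6.55% and 7.46% of all genes). It was 2 with quantile normalization (Mad2l1 and Espl1, 8.47% of all genes), 2 with the replicate block (14.2%), 3 with library weights (Mad2l1, Fzr1 and Espl1, 19.4%) and 3 with the correction together with the replicate block (Ttk, Fzr1 and Espl1, 14.6%). Leaving out each library in turn gave 0 to 3: 0 without control library 1 (3.57% of all genes), 1 (Pttg1) without control library 2 (15.6%), 3 (Bub1b, Fzr1 and Espl1) without control library 3 (14.3%), 2 (Fzr1 and Espl1) without aminophylline library 1 (6.81%), and 0 without aminophylline library 2 or 3 (3.18% and 4.14%). The pathway genes with an unadjusted p under 0.05, 4 of 51 as reported, numbered 7 with quantile normalization, 12 with library weights, 11 with the correction and the replicate block, and 0 to 12 on leaving out a library (12 without control library 2, 1 without control library 1 or aminophylline library 1, 2 without aminophylline library 3 and 0 without aminophylline library 2), while the shares of all genes moved as just given. The causes were not tested.

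Espl1, Fzr1, Mad2l1, Bub1b, Bub3 and Cdc20 kept their direction in all 18 alternatives and the 4 ratios in all 8 of theirs. The difference of Bub1, -0.01 as reported, was -0.32 to 0.34 on leaving out a library, with 0.34 without control library 3, 0.12 without aminophylline library 1, 0.02 without aminophylline library 2 and 0.13 with the correction, with or without the block. On leaving out a library the difference of Ttk was -0.038 to 0.39, of Fbxo43 -0.079 to 0.30 and of Pttg1 -0.024 to 0.35. Control library 2 gave the low end for Ttk and Fbxo43 and the high end for Pttg1, and control library 3 the opposite ends. Fbxo43 was at -0.05 without aminophylline library 3. The median over the members was 0.02 to 0.33 on leaving out a library and 0.07 to 0.22 otherwise. With the replicate block, 47 of all genes tested had an adjusted p under 0.05 against 0 without it, and 3 with the correction as well. At an unadjusted p under 0.05, 456 of all genes were higher and 294 lower as deposited, and 348 were higher and 528 lower after quantile normalization, so the balance of directions over all genes rests on the scaling. Control library 2 was the shallowest, and the part of depth in these values was not tested.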
